A study of Drosophila melanogaster with 4 samples.

Results

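This account covers 10 genes of the Polycomb and Trithorax groups in whole *Drosophila melanogaster* embryos: *E(z)*, *esc*, *Su(z)12*, *Pc*, *Psc*, *ph-p*, *pho*, *trx*, *ash1* and *brm*. They were taken by name from 14373 quantified genes and unmatched transcripts, of which 8584 had at least 1 read. The embryos were of strain w118 and were collected 4–5 h after egg laying, when the embryo transcribes its own genome, or 0–1 h after egg laying, when nearly all RNA is the mother's. Each stage has 2 libraries of Nanopore direct RNA sequencing, in which native RNA molecules are read from their 3′ ends, and no library covers the hours between. Both stages are of the same strain with no treatment named, and the labels do not say whether replicates came from separate collections, so the p-values measure the spread between these libraries only, which may be technical. All 10 genes had reads.

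Polycomb group proteins keep genes, the Hox genes among them, silent in the cells where early patterning left them off, and Trithorax group proteins keep them active where they were on. Polycomb repressive complex 2 (PRC2) methylates histone H3, and its mark is bound by Polycomb repressive complex 1 (PRC1), which compacts chromatin and ubiquitinates histone H2A. DNA-binding recruiters, Pho above all, bring both to Polycomb response elements. The fly loads many of these mRNAs into the egg, and the complexes take over the upkeep of Hox patterns after the transient segmentation regulators decay.

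Sequencing depth was 883138 and 429534 assigned reads at 4–5 h, against 573843 and 557424 at 0–1 h. The 10 genes together took 297 and 212 reads at 4–5 h, against 452 and 401 at 0–1 h, so every value rests on at most 101 reads of a gene in a library and its counting error is large. As a check of the stages, 6 maternal markers (*bcd*, *nanos*, *osk*, *dhd*, *swa*, *gnu*) summed to 120 and 54 reads at 4–5 h and to 7036 and 6686 at 0–1 h, and 6 zygotic markers (*Kr*, *en*, *sna*, *twi*, *SoxN*, *mira*) to 397 and 199 reads at 4–5 h and to 11 and 16 at 0–1 h. Follicle cell and fat body markers had 2 and 2 reads against 0 and 0, hemocyte markers 48 and 27 against 95 and 98, and male germ line markers 2 and 3 against 49 and 60, in the same order of stages. The hemocyte markers went both ways: *srp* had 28 and 18 reads at 4–5 h against 3 and 2, and *crq* 20 and 9 against 92 and 96. *Hml* and *Pxn* of the hemocyte markers had 0 reads in every library. Of the male germ line markers *can*, *sa* and *Mst87F* had 0 reads in every library, so all reads there were of *bam*. The part of other cells in the results was not tested. Ribosomal protein mRNAs made up 49.6% and 49.2% of reads at 4–5 h, against 23.0% and 25.9% at 0–1 h. Levels are therefore given as CPM, counts of a gene per 1000000 reads of a library whose size was scaled by TMM, which sets changes against the bulk of genes. With library size only, the median change of all 6042 tested genes was −1.29 on the log2 scale, against −0.10 with TMM, so the calls on the 10 genes are given on both scales. In whole embryos, fewer cells that carry an mRNA and less of it per cell cannot be told apart.

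With TMM, 4 of the 10 genes were higher at 4–5 h (*ph-p*, *Psc*, *brm* and *pho*), 2 were lower (*Pc* and *esc*) and 4 did not pass an adjusted p of 0.05 (*E(z)*, *Su(z)12*, *trx* and *ash1*), by edgeR's quasi-likelihood test with Benjamini-Hochberg adjustment over all genes. The background was 28.6% of all tested genes higher and 31.5% lower, so the counts alone do not set the 10 apart. With library size only, 1 of 10 was higher (*ph-p*) and 6 were lower, against a background of 10.8% and 63.4%. The order of the genes did not depend on the scaling: relative to the median gene, no gene's log2 change moved by more than 0.14 between the scalings, and 5 of the genes stood above it and 5 below it on both. All 10 passed the filter on low counts, *ph-p* only through its reads at 4–5 h, and *Pc*, *trx* and *ash1* only through theirs at 0–1 h. For those 4 genes the filter itself favours a difference between the stages.

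**Figure D1:**
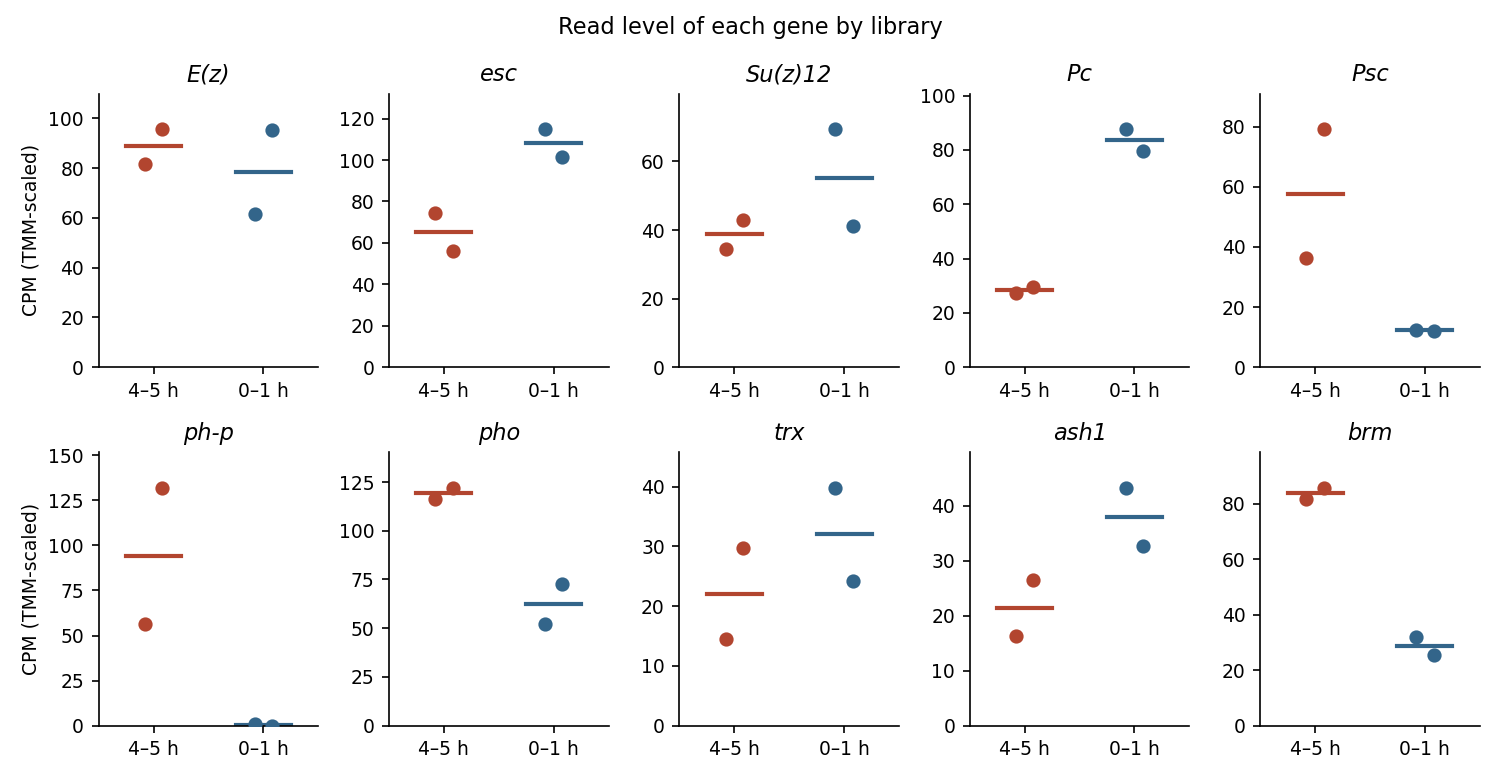
CPM on TMM-scaled library sizes (vertical axis, from 0) of each of the 10 genes in the 2 libraries of 4–5 h (left) and the 2 of 0–1 h (right); points are libraries and horizontal lines are means. *ph-p* lay at 56.4 and 132 CPM at 4–5 h against 1.14 and 0 at 0–1 h, and *Pc* at 27.3 and 29.7 CPM against 87.6 and 79.7.

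The subunits of PRC1 moved in opposite directions. *ph-p* (polyhomeotic proximal, FBgn0004861, chromosome X 2126210–2138371, minus strand, BDGP6.54), whose SAM domain lets PRC1 polymerise, had 31 and 40 reads at 4–5 h, against 1 and 0 at 0–1 h. The ratio of levels was 142, with a 95% counting interval of 24.7–5687 that rests on the single early read. The 0 in the second 0–1 h library allows up to 3 reads, or 3.62 CPM. Its log2 change was 6.82 (SE 0.68, adjusted p = 6.75e-13) with TMM and 5.76 (SE 0.86, adjusted p = 6.86e-06) with library size only, and the stages did not overlap. The 2 libraries of 4–5 h lay apart, at 56.4 and 132 CPM. With 1 library left out the fitted change ran from 6.06 without 0–1 h replicate 2 to 8.66 without 0–1 h replicate 1, where all early reads are 0 and the value depends on the prior count, with 6.24 without 4–5 h replicate 2 and 7.42 without 4–5 h replicate 1.

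*Psc* (Posterior sex combs, FBgn0005624, chromosome 2R 12965997–12980994, minus strand), the RING finger partner that compacts chromatin, had 20 and 24 reads (36.4 and 79.2 CPM) at 4–5 h, against 11 and 10 (12.5 and 12.1 CPM) at 0–1 h. The mean level was 57.8 ± 30.3 CPM at 4–5 h and 12.3 ± 0.309 CPM at 0–1 h (SD, n = 2 each), a log2 change of 2.11 (SE 0.44, adjusted p = 3.03e-05). Both late libraries lay above both early ones. Its change of 0.93 (SE 0.48) with library size only did not pass (adjusted p = 0.0795). *Pc* (Polycomb, FBgn0003042, chromosome 3L 21306138–21318020, minus strand), the chromodomain protein that reads the PRC2 mark, had 15 and 9 reads at 4–5 h, against 77 and 66 at 0–1 h. Its level was 28.5 ± 1.72 CPM at 4–5 h and 83.7 ± 5.58 CPM at 0–1 h (SD, n = 2 each), 2.96-fold lower at 4–5 h. The log2 change was −1.56 (SE 0.34, adjusted p = 5.77e-05) with TMM and −2.76 (SE 0.33, adjusted p = 3.65e-08) with library size only. *Pc* shares 60 bp of exon with *CG7632* on the opposite strand, which had 5 and 6 reads at 4–5 h, against 14 and 16 at 0–1 h. The labels do not say whether strand was used in counting.

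**Figure D2:**
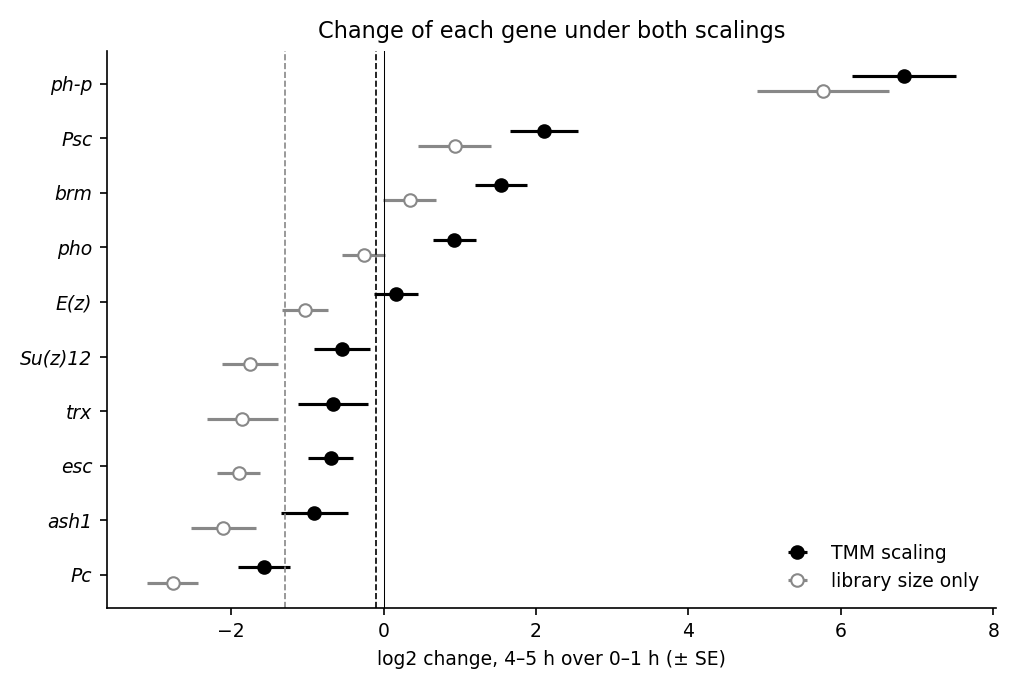
Log2 change of each gene, 4–5 h over 0–1 h, with its standard error (horizontal axis), with TMM scaling (filled) and with library size only (open); dashed lines mark the median of all tested genes on each scale, −0.10 and −1.29. The order of genes from *ph-p* at 6.82 to *Pc* at −1.56 with TMM stayed the same from 5.76 to −2.76 with library size only.

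The 3 PRC2 genes among the 10 showed small changes with TMM. *esc* (extra sex combs, FBgn0000588, chromosome 2L 11827204–11829405, minus strand), the WD-repeat subunit that stimulates the enzyme, had 41 and 17 reads at 4–5 h, against 101 and 84 at 0–1 h. Its level of 65.3 ± 13.0 CPM at 4–5 h was below the 108 ± 9.51 CPM at 0–1 h (SD, n = 2 each), with no overlap. The log2 change was −0.69 (SE 0.29, adjusted p = 0.0360), and −1.90 (SE 0.28, adjusted p = 1.09e-06) with library size only. The TMM call is weak: the adjusted p was 0.225 with DESeq2, 0.0783 with the replicate number as a block, 0.0584 with libraries thinned to the smallest, and 0.179, 0.0861 and 0.116 without 0–1 h replicate 1, 0–1 h replicate 2 and 4–5 h replicate 2. Over all alternatives it ran from 1.09e-06 to 0.225.

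*E(z)* (Enhancer of zeste, FBgn0000629, chromosome 3L 10634575–10638130, minus strand), the methyltransferase, had 45 and 29 reads at 4–5 h, against 54 and 79 at 0–1 h. Its levels of 81.8 and 95.7 CPM at 4–5 h overlapped the 61.4 and 95.4 CPM at 0–1 h, and the log2 change was 0.16 (SE 0.29, adjusted p = 0.648). The ratio of levels was 1.11 (95% counting interval 0.826–1.49), so a modest change either way is within counting error. Its change with library size only was −1.03 (SE 0.30, adjusted p = 0.00305), and it shares 38 bp of exon with *CG34001* on the opposite strand. *Su(z)12* (FBgn0020887, chromosome 3L 19918242–19923462, minus strand), the zinc finger subunit, had 19 and 13 reads at 4–5 h, against 61 and 34 at 0–1 h. Levels of 34.5 and 42.9 CPM at 4–5 h overlapped 69.4 and 41.1 CPM at 0–1 h, and the log2 change of −0.55 (SE 0.37, adjusted p = 0.197) did not pass with TMM, while −1.75 (SE 0.37, adjusted p = 0.000117) passed with library size only.

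*pho* (pleiohomeotic, FBgn0002521, chromosome 4 1172469–1181628, minus strand), the zinc finger recruiter related to mammalian YY1, had 64 and 37 reads at 4–5 h, against 46 and 60 at 0–1 h. Its level was 119 ± 4.05 CPM at 4–5 h and 62.4 ± 14.2 CPM at 0–1 h (SD, n = 2 each), without overlap. The log2 change was 0.93 (SE 0.29, adjusted p = 0.00371) with TMM and −0.26 (SE 0.29, adjusted p = 0.411) with library size only, so its direction depends on the scaling. Under DESeq2 (adjusted p = 0.117), in thinned libraries (0.0549) and without 0–1 h replicate 1 (0.140) the gene no longer passed, within a range of 0.00362 to 0.411 over all alternatives. On the authors' TPM, with limma, it was lower by call (−0.96, adjusted p = 0.00795).

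Of the 10 genes, 4 have a close relative in the genome, and the share of a pair's reads that falls on each copy does not depend on the scaling of libraries. Reads of *pho* were 81.0% and 75.5% of those of *pho* and *phol* (pleiohomeotic like) at 4–5 h, against 27.4% and 38.5% at 0–1 h. The exact (Clopper-Pearson) 95% intervals of the late libraries, 70.6–89.0% and 61.1–86.7%, lay above those of the early ones, 20.8–34.8% and 30.8–46.6%. Per unit of length, in the authors' TPM, the shares were 86.3% and 83.3% at 4–5 h and 38.2% and 47.9% at 0–1 h. *phol* itself had 15 and 12 reads at 4–5 h, against 122 and 96 at 0–1 h, a log2 change of −1.99 (SE 0.33, adjusted p = 2.74e-07) with TMM and −3.18 with library size only. *phol* passed the filter only through its reads at 0–1 h, which favours a difference. Most reads of the pair were *pho* in both 4–5 h libraries and *phol* in both 0–1 h libraries.

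*ph-p* and *ph-d* are neighbours on the X chromosome and are known as closely similar copies of one gene, and how well reads were assigned between them was not tested. *ph-p* took 46.3% (interval 34–58.9%) and 60.6% (47.8–72.4%) of their reads at 4–5 h, against 7.14% (0.181–33.9%) and 0% (0–28.5%) at 0–1 h. *ph-d* had 36 and 26 reads at 4–5 h, against 13 and 11 at 0–1 h, a log2 change of 2.38 (SE 0.39, adjusted p = 1.69e-07), and 1.19 (adjusted p = 0.00946) with library size only. Summed as 1 gene, an alternative chosen after seeing the data, the pair had 67 and 66 reads at 4–5 h, against 14 and 11 at 0–1 h, and rose 11.1-fold with TMM (log2 change 3.47, SE 0.34, adjusted p = 1.56e-14). The sum was not refitted with library size only.

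*esc* took 95.3% (84.2–99.4%) and 100% (80.5–100%) of the reads of *esc* and *escl* at 4–5 h, against 83.5% (75.6–89.6%) and 73.04% (64.0–80.9%) at 0–1 h. *escl* (esc-like) had 2 and 0 reads at 4–5 h, against 20 and 31 at 0–1 h, and its ratio of levels was 0.0784 (95% counting interval 0.00925–0.298). Of the *esc* intervals, only those of the first 4–5 h library and the second 0–1 h library lay apart, and the other late and early intervals overlap. *escl* shares 53 bp of exon with *dgt2* on the same strand. *Psc* took 95.2% and 100% of the reads of *Psc* and its neighbour *Su(z)2* at 4–5 h and 84.6% and 83.3% at 0–1 h, with intervals that overlap, since *Su(z)2* had 1 and 0 reads at 4–5 h, against 2 and 2 at 0–1 h. In each of the 4 pairs the 2 late shares lay above the 2 early ones. With 2 libraries against 2, an exact two-sided permutation test cannot go below p = 0.333, the value for each pair, so these shares rest on their counting intervals.

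**Figure D3:**
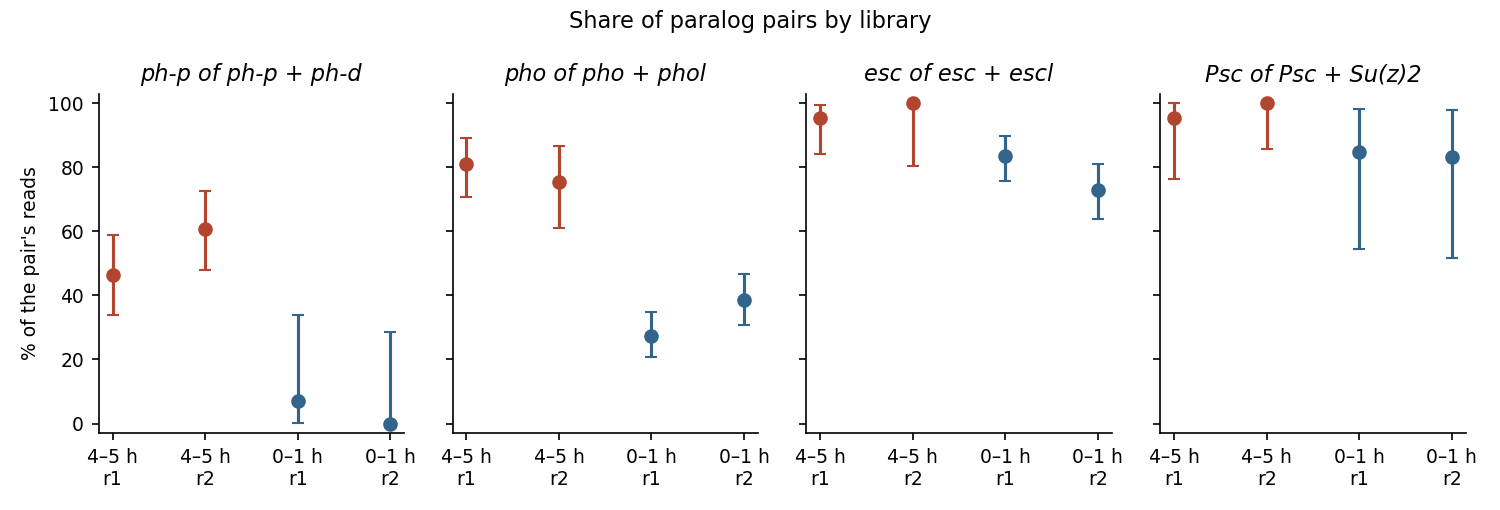
Share of the reads of a paralog pair that fell on the first-named gene (vertical axis, percent), per library, with exact 95% binomial intervals for counting error; libraries of 4–5 h are left of those of 0–1 h. *pho* stands at 81.0% and 75.5% at 4–5 h against 27.4% and 38.5% at 0–1 h, and *ph-p* at 46.3% and 60.6% against 7.14% and 0%.

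Of the 3 Trithorax group genes, *brm* was higher at 4–5 h with TMM, and *trx* and *ash1* did not pass. *brm* (brahma, FBgn0000212, chromosome 3L 15970082–15982869, minus strand), the ATPase of the SWI/SNF remodelling complexes, had 45 and 26 reads at 4–5 h, against 28 and 21 at 0–1 h. Its level was 83.8 ± 2.81 CPM at 4–5 h and 28.6 ± 4.59 CPM at 0–1 h (SD, n = 2 each), 2.90-fold higher at 4–5 h. The log2 change was 1.54 (SE 0.34, adjusted p = 7.04e-05), but 0.34 (SE 0.34, adjusted p = 0.373) with library size only. *trx* (trithorax, FBgn0003862, chromosome 3R 14263358–14286903, minus strand), a histone H3 methyltransferase, had 8 and 9 reads at 4–5 h, against 35 and 20 at 0–1 h. Its levels of 14.5 and 29.7 CPM at 4–5 h overlapped 39.8 and 24.2 CPM at 0–1 h, and the log2 change of −0.66 (SE 0.46, adjusted p = 0.214) did not pass with TMM, while −1.85 (SE 0.46, adjusted p = 0.000841) passed with library size only. Its exons share 570 bp with an antisense RNA that was not among the quantified genes. Whether reads of that RNA were assigned to *trx* was not tested. *ash1* (absent, small or homeotic discs, FBgn0005386, chromosome 3L 19590773–19598755, minus strand), also a histone methyltransferase, had 9 and 8 reads at 4–5 h, against 38 and 27 at 0–1 h. Its levels of 16.4 and 26.4 CPM at 4–5 h lay below 43.2 and 32.6 CPM at 0–1 h. The log2 change was −0.91 (SE 0.44, adjusted p = 0.0654) with TMM and −2.10 (SE 0.43, adjusted p = 8.79e-05) with library size only. The TMM fit passed for *ash1* with no filter (adjusted p = 0.0467) and without 4–5 h replicate 2 (0.0493), within a range of 8.79e-05 to 0.443 over all alternatives. Whether *brm* differs from *trx* or *ash1* in its change was not tested.

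The makeup of the group's own reads needs no scaling either, but a rise in the share of any gene lowers the others. *ph-p* took 10.4% and 18.9% of the reads at 4–5 h, against 0.221% and 0% at 0–1 h. The shares were not recomputed without *ph-p*. The PRC1 genes *Pc*, *Psc* and *ph-p* together took 22.2% and 34.4% at 4–5 h, against 19.7% and 19.0% at 0–1 h. The PRC2 genes *E(z)*, *esc* and *Su(z)12* took 35.4% (95% interval 29.9–41.1%) and 27.8% (21.9–34.4%) of the reads of the 10 genes at 4–5 h, against 47.8% (43.1–52.5%) and 49.1% (44.1–54.1%) at 0–1 h. *Pc* alone took 5.05% (2.85–8.19%) and 4.25% (1.96–7.91%) at 4–5 h, against 17.0% (13.7–20.8%) and 16.5% (13.0–20.5%) at 0–1 h. The intervals of the stages did not overlap for the PRC2 genes or for *Pc*, with *ph-p* in the total. *brm* took 15.2% (11.3–19.7%) and 12.3% (8.17–17.5%) at 4–5 h, against 6.19% (4.16–8.83%) and 5.24% (3.27–7.89%) at 0–1 h. For *pho* the shares were 21.5% (17.0–26.7%) and 17.5% (12.6–23.2%) at 4–5 h, against 10.2% (7.55–13.3%) and 15.0% (11.6–18.8%) at 0–1 h. *trx* and *ash1* together took 5.72% (3.37–9.01%) and 8.02% (4.74–12.5%) at 4–5 h, against 16.2% (12.9–19.9%) and 11.7% (8.74–15.3%) at 0–1 h. For these last 3 the values of the stages stood apart but some of their intervals overlapped. *E(z)* held 15.2% and 13.7% at 4–5 h, within the 11.9% and 19.7% of the 0–1 h libraries.

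Different genes were set beside each other in the authors' deposited TPM, which is corrected for length, and only within a stage. Reads start at the 3′ ends of RNA molecules, and whether a correction for length suits them was not tested. It sets long transcripts lower than their reads do. At 4–5 h *brm* had 45 and 26 reads and *E(z)* 45 and 29, but their mean TPM were 3.97 and 9.65. The order below therefore depends on this correction. At 4–5 h *pho* came first at 14.1 ± 2.36 TPM, followed by *esc* at 10.7 ± 1.41 and *E(z)* at 9.65 ± 1.72 TPM (SD, n = 2). Next came *ph-p* at 4.16 ± 2.69, *brm* at 3.97 ± 0.405, *Pc* at 3.10 ± 0.398, *Su(z)12* at 2.49 ± 0.621 and *Psc* at 2.32 ± 1.35 TPM. *ash1* at 0.706 ± 0.279 and *trx* at 0.445 ± 0.242 TPM were last. Neighbours in this order differed by more than their summed SDs only between *E(z)* and *ph-p* and between *brm* and *Pc*. At 0–1 h the order was *esc* (69.3 ± 11.9 TPM), *Pc* (35.2 ± 5.29), *E(z)* (32.5 ± 7.30), *pho* (28.3 ± 1.93), *Su(z)12* (14.1 ± 6.21), *brm* (5.27 ± 1.28), *ash1* (4.83 ± 1.35), *trx* (2.49 ± 1.05), *Psc* (1.88 ± 0.205) and *ph-p* (0.103 ± 0.145). Here the neighbours *esc* and *Pc*, *pho* and *Su(z)12*, *Su(z)12* and *brm*, and *Psc* and *ph-p* differed by more than their summed SDs, and the other neighbours did not. Among genes with reads the 10 ran from the 15.0th percentile of TPM (*trx*) to the 77.5th (*pho*) at 4–5 h and from the 0.4th (*ph-p*) to the 80.3rd (*esc*) at 0–1 h. At 0–1 h the PRC2 genes and *Pc* all stood above *Psc* and *ph-p* in TPM.

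The group shares some features that its choice did not use. All 10 genes lie on the minus strand, against 50.6% of tested genes. Of their relatives, *ph-d* and *phol* lie on the minus strand and *escl* and *Su(z)2* on the plus strand. Their longest annotated transcripts have a median of 4826 nt, against 2028 nt over tested genes, and run from 1704 nt (*esc*) to 14052 nt (*trx*). The read-weighted mean transcript length of whole libraries was 1266 and 1338 nt at 4–5 h, against 1798 and 1665 nt at 0–1 h, and the part of length in the changes of these genes was not tested.

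The 10 genes have 29 annotated transcript forms, of which 14 received any read. *esc* and *Pc* have 1 form each. In 5 of the other 8 genes a single form was assigned every read in all 4 libraries: *E(z)*-RB, *Psc*-RC, *trx*-RC, *ash1*-RB and *brm*-RD. Some forms are nearly alike, such as *ash1*-RB and *ash1*-RC, of 7600 and 7615 nt with the same start and 3′ end. Whether these reads can tell the forms of the 5 genes apart was not tested, so the form named may not be the one expressed. In *Psc*, whose annotated 3′ ends lie 325 nt apart, and in *trx*, where they lie 1300 nt apart, all reads fell on forms with the downstream end at both stages. Among the relatives, all reads of *phol* and *escl* fell on the downstream of 2 ends, 245 and 277 nt apart, whereas the 5 reads of *Su(z)2* fell on both of its ends, 109 nt apart.

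For *Su(z)12*, *ph-p* and *pho* the form that held the reads differed between replicates of the same stage. *pho*-RA (2381 nt) held 64 and 6.2 reads at 4–5 h, against 0 and 60 at 0–1 h, while *pho*-RB (2159 nt), with the same start and 3′ end, held 0 and 30.8 reads at 4–5 h, against 46 and 0 at 0–1 h. *Su(z)12*-RA held all 19 reads of the first 4–5 h library and *Su(z)12*-RB all 13 of the second, with RB also holding the 61 and 34 reads at 0–1 h. *ph-p*-RA held the 31 reads of the first 4–5 h library and *ph-p*-RB the 40 of the second. Only *pho* could be tested for a change of form between stages, and it did not pass (adjusted p = 0.9996 by edgeR's diffSpliceDGE). Of the 823 genes tested 13.4% passed, but with the replicate block 0 did (92 at an unadjusted p under 0.05), and with 1 library left out 0 or 1 did. Such swaps were common: the leading form differed between the replicates of a stage in 28.2% of 1328 genes at 4–5 h and in 24.2% of 2882 genes at 0–1 h that have 2 or more forms and at least 20 reads in both libraries. Counted library by library, a single form held at least 99% of the reads in 54.1% of 2099 and 61.4% of 1347 genes at 4–5 h, and in 60.1% of 3099 and 57.7% of 3011 genes at 0–1 h, over genes with 2 or more forms and at least 20 reads in that library. Since the forms of these 3 genes differed between replicates, no change of form with stage was read from them.

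**Figure D4:**
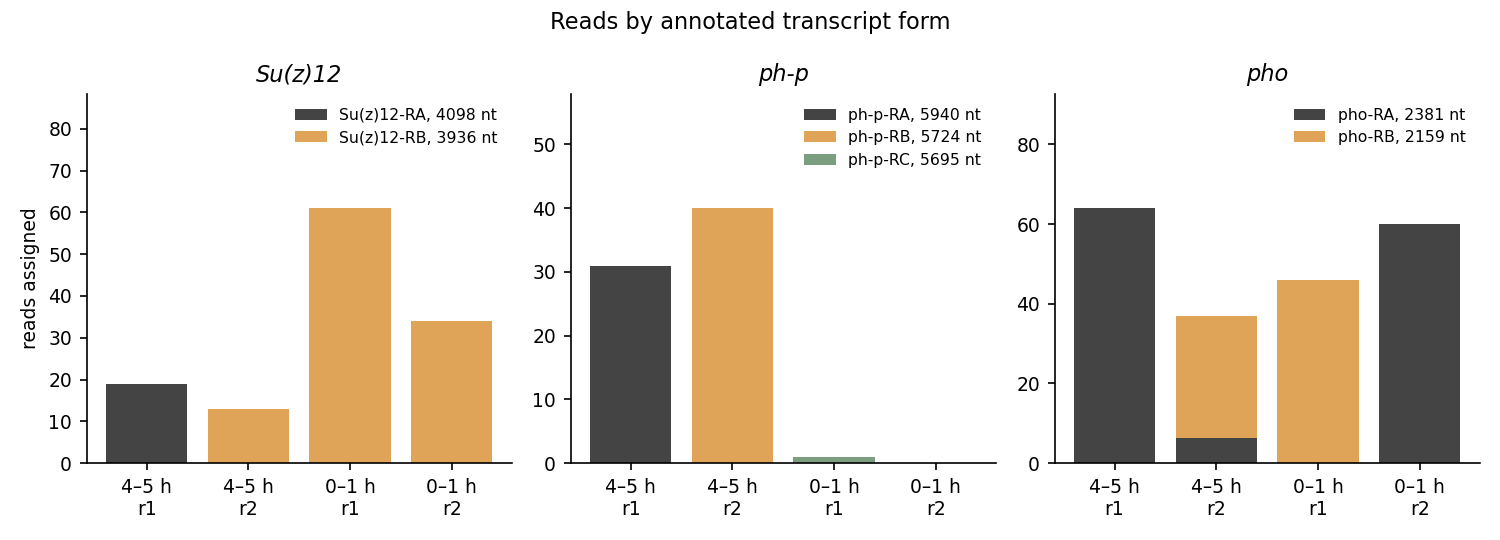
Reads assigned to each annotated form (stacked bars, vertical axis in reads) of *Su(z)12*, *ph-p* and *pho* in the 2 libraries of 4–5 h (left) and the 2 of 0–1 h (right). The form that holds the reads can differ within a stage, as in *pho* at 0–1 h, where RB held 46 reads in the first library and RA 60 in the second.

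The other genes of the Polycomb and Trithorax groups, 63 in 7 lists, were described in the same way, and 60 could be tested. With TMM 29 were higher at 4–5 h, 7 were lower and 24 did not pass, with a median log2 change of 0.62 against −0.10 over all tested genes, of which 28.6% were higher and 31.5% lower. With library size only 8 were higher and 29 lower, with a median of −0.58 against −1.29, and 10.8% of all genes were higher and 63.4% lower. These shares of all genes are the background for each list below. Of the genes called with TMM, *jing*, *tara* and *tna* passed the filter only through 4–5 h, and *Scm*, *Spps*, *escl* and *phol* only through 0–1 h, so for these 7 the filter itself favours the difference. Among 6 genes listed with PRC2, 3 were lower (*Scm*, *Pcl* and *escl*), 2 higher (*jing* and *Caf1-55*) and *Jarid2* did not pass; with library size only 4 were lower and *jing* alone higher, as *Caf1-55* had a change of 0.05 (adjusted p = 0.855). *Scm*, a SAM domain protein that links the complexes, had 10 and 10 reads at 4–5 h against 95 and 75 at 0–1 h (log2 change −2.06, SE 0.36, adjusted p = 6.58e-07; −3.25 with library size only). *Pcl*, a PRC2 cofactor, fell to 36.5 ± 4.95 CPM at 4–5 h, against 111.7 ± 38.4 CPM at 0–1 h (log2 change −1.58, SE 0.33, adjusted p = 2.43e-05; −2.79 with library size only). *jing*, a zinc finger gene, had 58 and 34 reads at 4–5 h against 9 and 5 at 0–1 h (log2 change 3.69, SE 0.41, adjusted p = 6.01e-13; 2.51 with library size only). Of 5 tested genes listed with PRC1, 2 were higher and 3 did not pass, and with library size only 1 was higher and 3 lower. Beside *ph-d* the other was *Sce*, the H2A ubiquitin ligase, at 100.1 ± 20.3 CPM at 4–5 h and 60.0 ± 9.16 CPM at 0–1 h, whose change of 0.77 (SE 0.29, adjusted p = 0.0172) became −0.43 with library size only. The *Sce* call was also lost with DESeq2 (adjusted p = 0.250) and with the replicate block in edgeR (0.0617). With 1 library left out its change ran from 0.52 without 4–5 h replicate 1 to 0.94 without 4–5 h replicate 2. On the authors' TPM, with limma, *Sce* was lower by call (−1.17, adjusted p = 0.00128).

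Of 8 tested recruiters and DNA-binding genes 3 were higher (*Dsp1*, *Trl* and *z*) and 3 lower (*phol*, *Spps* and *Sfmbt*) with TMM. With library size only 1 was higher and 5 lower, and *Trl* (−0.16, adjusted p = 0.633) and *z* (−0.54, adjusted p = 0.0779) turned direction without passing. *Dsp1*, an HMG protein gene, had 147 and 119 reads at 4–5 h against 53 and 59 at 0–1 h (log2 change 2.31, SE 0.26, adjusted p = 1.13e-12; 1.13 with library size only). *Sfmbt*, the partner of Pho, fell by 0.70 on the log2 scale (SE 0.30, adjusted p = 0.0378) with TMM and by 1.89 with library size only. *grh*, the grainy head transcription factor gene, had 14 and 18 reads at 4–5 h, against 0 and 0 at 0–1 h, which was at least 12.1-fold higher against a floor of 3 reads per library, and was not tested. Of 7 other Polycomb group genes 1, *corto*, passed with TMM, and with library size only 0 were higher and 4 (*Asx*, *E(Pc)*, *crm* and *sxc*) lower by the same edgeR test. *corto* had 211 ± 23.4 CPM at 4–5 h and 81.3 ± 8.99 CPM at 0–1 h (log2 change 1.36, SE 0.26, adjusted p = 3.49e-06; 0.18, not passing, with library size only), and *caly*, the deubiquitinase of the PR-DUB complex, had a change of 0.77 (SE 0.37, adjusted p = 0.0627).

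The remaining 3 lists hold Trithorax group genes. Of 14 other tested genes listed with the Trithorax methyltransferase complexes 9 were higher and none lower, with a median of 0.94. With library size only 1 was higher and 5 lower, and the median was −0.26. *Rbbp5*, a core subunit of COMPASS complexes, had 64.8 ± 1.67 CPM at 4–5 h and 14.1 ± 2.25 CPM at 0–1 h (log2 change 2.18, SE 0.40, adjusted p = 1.95e-06; 0.99 with library size only). *Wdr82*, a subunit of the Set1 complex, had 99.5 ± 0.708 CPM at 4–5 h and 33.2 ± 7.71 CPM at 0–1 h (log2 change 1.57, SE 0.31, adjusted p = 7.64e-06; 0.38, not passing, with library size only). Of 9 tested genes of the Brahma complexes 6 were higher and none lower, with a median of 0.97, against −0.23 with library size only, where 1 was higher and 3 lower. *Bap55*, an actin-related subunit, had 160 and 82 reads at 4–5 h against 53 and 37 at 0–1 h (log2 change 2.42, SE 0.26, adjusted p = 4.60e-13; 1.22 with library size only), and *polybromo*, which marks the PBAP form, had a change of 1.83 (SE 0.31, adjusted p = 3.38e-07; 0.63, not passing, with library size only). *mor*, *osa* and *e(y)3* did not pass, at 0.58, 0.04 and −0.43. Of 11 other tested Trithorax group genes 6 were higher and 1, *skd*, lower (−0.90, adjusted p = 0.0266; −2.10 with library size only), with a median of 0.92, against −0.27 with library size only, where 3 were higher and 5 lower. *Iswi*, a remodelling ATPase gene, had 85 and 43 reads at 4–5 h against 27 and 22 at 0–1 h (log2 change 2.37, SE 0.30, adjusted p = 1.22e-10; 1.17 with library size only). *tna* had 20 and 13 reads at 4–5 h against 0 and 2 at 0–1 h, a ratio of 33.0 (95% counting interval 8.44–284).

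**Figure D5:**
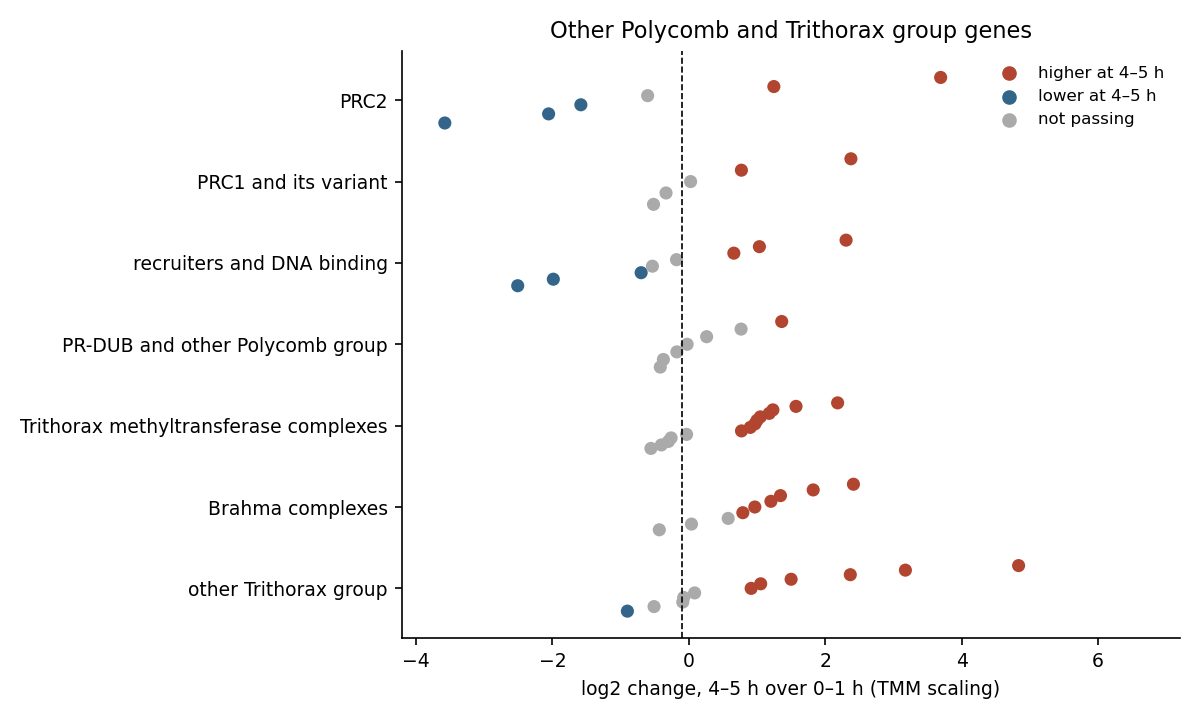
Log2 change, 4–5 h over 0–1 h, with TMM scaling (horizontal axis) of the 60 tested genes of the 7 lists (rows), colored by whether they passed higher, passed lower or did not pass; the dashed line is the median of all tested genes, −0.10. Of the genes listed with PRC2, 2 passed higher and 3 lower. In the list of Trithorax methyltransferase complexes 9 passed higher and 5 did not pass. In the Brahma list 6 passed higher and 3 did not pass.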

How the data were processed

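RNA was measured in 4 libraries, 2 per stage. Per the labels' protocols, embryo lysate was cleared by centrifugation, RNA was extracted with TRI-reagent, and total RNA went into Nanopore direct RNA libraries. The submitters' processing notes name minimap2, Salmon and build BDGP6; their versions and settings are not stated there. The deposited expected counts per transcript, estimated by the authors with Salmon, are not normalised; here they were summed per gene and rounded. The deposited TPM, per the file headers, are Salmon's length-corrected relative abundances, which sum to the same total in every library. Of 30652 transcripts 30280 matched Ensembl release 115 (BDGP6.54), a patch that may be later than the authors', with equal length for 99.4%; the other 372 were kept apart.

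The model had stage alone as its term and was fitted in edgeR 4.0.16 (R 4.3.3) to the 6042 genes that filterByExpr kept at a minimum count of 10. It used TMM scaling, robust quasi-likelihood F tests and Benjamini-Hochberg adjustment over those genes, with a threshold of 0.05. SE is the log2 change divided by the square root of F. Form usage was tested with diffSpliceDGE on transcripts past the same filter. Both were also run on simulated data with as many rises as falls, which cannot show how they fare where calls depend on the scaling. Alternatives used limma 3.58.1 on log2(TPM + 1) and DESeq2 1.42.0, among others. Counting intervals are exact at 95% and cover counting error only, as does the floor of 3 reads. Named beside the 10 genes are their paralogs and, per list, the 2 others with the smallest p; *Pcl*, *Caf1-55*, *Jarid2*, *Trl*, *z*, *Spps*, *Sfmbt*, *Asx*, *E(Pc)*, *crm*, *sxc*, *tara*, *grh*, *mor*, *osa*, *e(y)3* and *skd* were chosen after their values were seen. Promoter sequences were not analysed here. The listed name urd matched no gene. The members and lists were chosen with earlier results of these data known.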

Additional observations from a re-analysis of the deposited data

How the results depend on the processing

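Of the 10 genes, *Pc* and *ph-p* kept direction and call under every alternative run, with log2 changes of −3.14 to −1.49 and 2.13 to 8.66. Over all 10 genes and settings 89 values kept direction and side of the threshold, 8 gained a call, 12 lost one and 6 reversed; for the other named genes these counts were 154, 1, 12 and 8.

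With library size only, log2 changes reversed for *E(z)* (−1.03), *pho* (−0.26), *Sce* (−0.43) and *caly* (−0.44). All genes then gave 654 higher and 3828 lower against 1730 and 1902, the 10 genes 1 and 6 against 4 and 2, and the other listed genes 8 and 29 against 29 and 7. With limma on log2(TPM + 1), reversed values were −1.64 for *E(z)*, −0.96 for *pho*, −0.32 for *brm*, −1.17 for *Sce*, −0.30 for *Dsp1*, −0.61 for *corto*, −1.10 for *caly*, −0.34 for *Wdr82* and −0.045 for *polybromo*. The counts were 312 and 4798 for all genes, 1 and 7 for the 10 genes, and 3 and 44 for the other listed genes. In both settings the median of all genes moved down with them, to −1.29 and −1.80.

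DESeq2 gave 1337 higher and 1026 lower of 7566 genes (17.7% and 13.6%). It called 3 of the 10 higher and 1 lower, and 17 higher and 4 lower of the other listed genes. A minimum count of 30 left 1 of the 10 higher, as fewer were tested, and 2 lower. All genes then gave 1230 higher and 1396 lower, and the other listed genes 25 and 4. Thinning to the smallest library left 2 of the 10 higher and 1 lower, with 1422 higher and 1541 lower over all genes. Otherwise the cause was not tested.

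Without 1 replicate the log2 change of *E(z)* ran from −0.16 without 0–1 h replicate 1 to 0.50 without 0–1 h replicate 2. Same-numbered libraries did not deviate together (r = −0.159 across genes, which are not independent). With 2 libraries per stage this cannot decide whether the numbers pair them, and the labels do not say. With the replicate block all genes gave 1568 higher and 1696 lower, and the 10 genes 4 and 1; crossing the pairs, chosen after seeing the data, gave 1834 and 1954 genes.

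For form usage, edgeR called 110 of 823 genes, 0 with the replicate block (92 at an unadjusted p under 0.05) and 0 to 1 without 1 replicate (196 to 362 unadjusted); no other tool was run. Depth limits the precision of low counts: *trx*, *ash1* and *Psc* had 8 to 38 reads per library, and *ph-p* 1 and 0 reads at 0–1 h.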
